A study of Danio rerio with 33 samples.

Results

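The zebrafish miRNAs dre-miR-2187, dre-miR-2189 and dre-miR-2192 were profiled in gonads, embryo and adult somatic tissues. They were selected by name, taking every mature miRNA that carries the number of one of these hairpins, and the hairpins had been picked for their gonad or embryo patterns and for the spread between replicates. The selection gave 4 of the 247 known mature miRNAs, namely dre-miR-2187-3p, dre-miR-2187-5p, dre-miR-2189 and dre-miR-2192. Levels in testis, ovary and embryo are therefore given as a description without a test, and tests were kept to comparisons between somatic tissues and between the sexes. The tests on read counts used a spread per miRNA estimated over all groups. The testis spread of dre-miR-2189 therefore enters the SEs and p-values of its somatic and sex tests.

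A miRNA is a short RNA cut from a hairpin precursor, and it guides an Argonaute protein to messenger RNAs that pair with a few bases near its 5′ end, the seed. Either strand of the hairpin can be kept, and the mature forms from its 2 sides are called the 5p and the 3p arm. In zebrafish several miRNAs are closely tied to one tissue, such as miR-122 to liver, miR-124 and miR-9 to neurons, and the miR-430 family to the early embryo, where it clears maternal messenger RNAs.

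Small RNA had been sequenced from testis, ovary and embryo, from brain, gut and liver of either sex, and from eye and heart, all from fish of a wild type Singapore strain without any treatment. Each group had 3 libraries, except heart with 2 libraries analysed here, and each adult library held RNA pooled from several fishes. The embryo sample was a mixture of several early stages with juveniles, so it does not resolve stages. The labels give no sex for eye and heart, which the study describes as taken from males, and age is not given for the adults. The samples are bulk tissue, so fewer cells of a type and less RNA per cell cannot be told apart.

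Total read counts on known miRNAs ranged from 277699 to 11732555 per library with a median of 1439827, and reads carry no molecular identifiers, so limits drawn from counts cover counting error only. Markers followed most labels. Liver carried dre-miR-122, gut dre-miR-192 and dre-miR-194a, brain dre-miR-9-5p, both gonads dre-miR-202-5p and embryo dre-miR-430a. Liver carried the gut markers as well. In female and male liver dre-miR-194a averaged 101871 and 89735 normalized read counts, against 169200 and 203000 in gut. For dre-miR-192 the means were 28041 and 23819, against 52032 and 55263 in gut. The liver marker dre-miR-122 averaged 9475 in female gut and 2183 in male gut, against 105502 and 40564 in liver. The other brain marker, dre-miR-124, averaged 811 normalized read counts in male brain and 923 in female brain. That was below its means in eye (3325) and heart (1784). The libraries labelled heart did not follow their label alone. They had 1600 and 1848 normalized read counts of the heart and muscle marker dre-miR-499, against 36.4 to 46.3 in eye. The other heart marker, dre-miR-1, averaged 268, against 27.0 to 49.6 in eye. But they also had 54233 and 66672 of the sensory cell marker dre-miR-182-5p, against 65422 to 68144 in eye. Of the other eye markers, dre-miR-183 had 2052 and 2319, against 1746 to 2021 in eye. dre-miR-96 was further from eye, with 2797 and 3245 against 15839 to 16551. The neuronal dre-miR-124 had 1544 and 2024, against 2624 to 3768 in eye. What these markers mean for the results with heart was not tested, and counts of calls are given with and without heart.

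In the current RefSeq annotation of the GRCz12tu assembly, which is not the build used for the read mapping, mir2187 overlapped chrm3a, a muscarinic acetylcholine receptor gene, and its nearest other genes were fmn2a and ryr2b. The gene mir2192 overlapped pvalb3, which encodes a parvalbumin, a calcium binding protein, and lay beside pvalb9 and pvalb2. The gene mir2189 overlapped no other gene and lay next to a long non-coding RNA, LOC141376728. Strand, exon and intron were not resolved in this annotation.

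The 4 miRNAs differed in level and in how evenly they were spread over the groups. dre-miR-2189 had 6560 reads over all libraries and was detected in 32 of 32. dre-miR-2187-5p had 454 reads in 29 libraries, dre-miR-2187-3p 376 reads in 28 libraries and dre-miR-2192 217 reads in 9 libraries. The specificity index tau, computed on log2(normalized read count + 1) group means, is 0 for an even profile and 1 for a miRNA found in a single group. It was 0.95 for dre-miR-2192, 0.54 for dre-miR-2187-3p, 0.50 for dre-miR-2187-5p and 0.48 for dre-miR-2189. The median of the 238 miRNAs with a read was 0.27, and dre-miR-2192 ranked 4 among them. The index rests on the same levels that led to the selection and is a description.

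**Figure D1:**
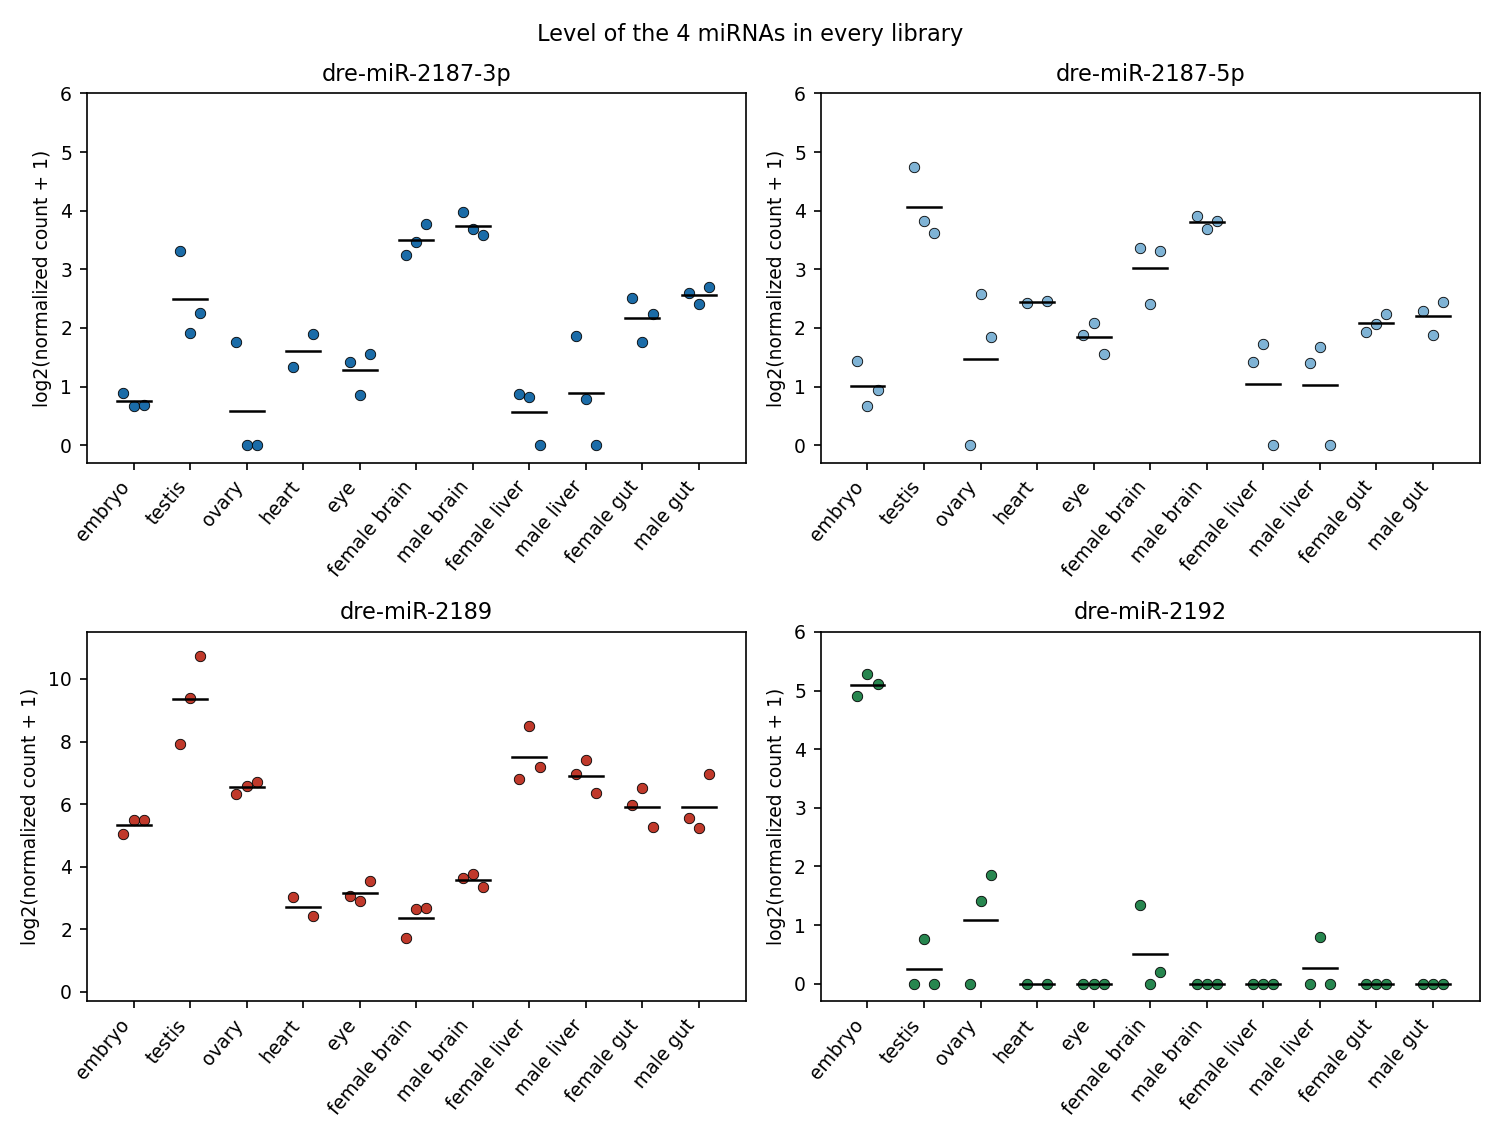
Each point is a library, drawn as log2(normalized read count + 1) on the vertical axis over the 11 sample groups, and each line is the mean of those log2 values. dre-miR-2189 separates heart, eye and brain (12.5 or less in all 11 libraries) from liver, gut, testis, ovary and embryo (31.7 or more in all 21 libraries), both arms of dre-miR-2187 are high in brain and the 5p arm also in testis, and dre-miR-2192 is high in embryo.

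dre-miR-2189 was highest in testis, where the 3 libraries had 239.7, 670.9 and 1703 normalized read counts (mean 871 ± 752, SD, n = 3). In ovary they had 79.1, 94.1 and 104.1 (92.4 ± 12.6). All 3 testis libraries were above all 3 ovary libraries, and the ratio of the means was 9.43. Embryo had 31.7, 43.8 and 43.8 normalized read counts, below every gonad library.

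Among somatic tissues dre-miR-2189 was scarce in heart, eye and brain and was found mainly in liver and gut. The libraries labelled heart had 7.14 and 4.35 normalized read counts, and eye had 7.42, 6.52 and 10.6 (8.18 ± 2.15). Female brain had 2.31, 5.29 and 5.42 (4.34 ± 1.76), and male brain 11.4, 12.5 and 9.29 (11.1 ± 1.63). Levels were far higher in the digestive organs. Female liver had 109.9, 362.1 and 146.2 (206 ± 136), and male liver 124.7, 168.8 and 81.2 (125 ± 43.8). Female gut had 61.9, 89.7 and 37.97 (63.2 ± 25.9), and male gut 46.3, 36.5 and 123.5 (68.7 ± 47.7). The liver and gut ranges overlapped in males and not in females. In the order of means (testis, female liver, male liver, ovary, male gut, female gut, embryo, male brain, eye, heart, female brain) neighbouring groups overlapped at every step but one. The step without overlap lay between embryo and male brain, at 31.7 in the lowest embryo library and 12.5 in the highest male brain library. This order and the overlap of testis with female liver depended on the scaling. With CPM (counts scaled by library size alone) the lowest testis library had 212.2, above every library of the other groups. The highest of those was a female liver library at 182.3. The CPM means were 129.3 in ovary, 128.0 in male liver and 120.6 in female liver.

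The size of the testis lead depended on which library was used and on the scaling. By normalized read count the testis library with 239.7 lay below the female liver library with 362.1. The testis mean was 4.23 times the female liver mean, and it was 5.76, 4.71 or 2.21 times without testis replicate 1, 2 or 3. With CPM the testis mean was 960.3, against 120.6 in female liver. By mean normalized read count, which is not corrected for length, dre-miR-2189 ranked 64 of 247 miRNAs in testis.

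The highest testis library had 7.10 times the dre-miR-2189 of the lowest. The median of this ratio over the 192 miRNAs that averaged 10 or more normalized read counts in testis was 1.48, and dre-miR-2189 ranked 5 among them. The spread was part of the reason for the selection, so this rank is a description. With CPM (counts scaled by library size alone) the ratio was 9.09. The widest were dre-miR-212 (59.0, 3.49 and 16.6 in testis replicates 1, 2 and 3), dre-miR-738 (31.3, 10.5 and 2.26) and dre-miR-459-3p (1.79, 9.07 and 20.4). The testis libraries did not all deviate in the same order, since dre-miR-212 and dre-miR-738 were highest in replicate 1 and dre-miR-459-3p in replicate 3.

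Both miRNAs of the gut marker list were distributed over the testis libraries like dre-miR-2189. dre-miR-194a had 153.9, 246.9 and 1092 normalized read counts and dre-miR-192 had 65.3, 92.8 and 447.9 in testis replicates 1, 2 and 3, while the liver marker dre-miR-122 had 56.4, 67.6 and 59.6. dre-miR-459-3p, which the study describes as enriched in gut but also present in liver, rose in the same order as dre-miR-2189. It had 1.79, 9.07 and 20.4, a highest over lowest ratio of 11.4. dre-miR-194b and dre-miR-459-5p, both with a far higher level in gut than in brain, were spread less, with ratios of 1.54 and 2.98. These latter miRNAs were chosen after their values were seen. The lowest testis library, at 239.7 normalized read counts of dre-miR-2189, was above all 6 gut libraries at 36.5 to 123.5. The gut libraries averaged 169200 normalized read counts of dre-miR-194a in females and 203000 in males. What the gut markers mean for dre-miR-2189 in testis was not tested. Spread was also seen outside testis. The highest over lowest ratio of dre-miR-2189 was 3.39 in male gut, 3.29 in female liver, 2.36 in female gut and 2.08 in male liver, where it ranked 2 of 186, 5 of 183, 5 of 193 and 18 of 184 miRNAs. It was 2.34 in female brain, 1.34 in male brain, 1.63 in eye, 1.38 in embryo and 1.32 in ovary.

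**Figure D2:**
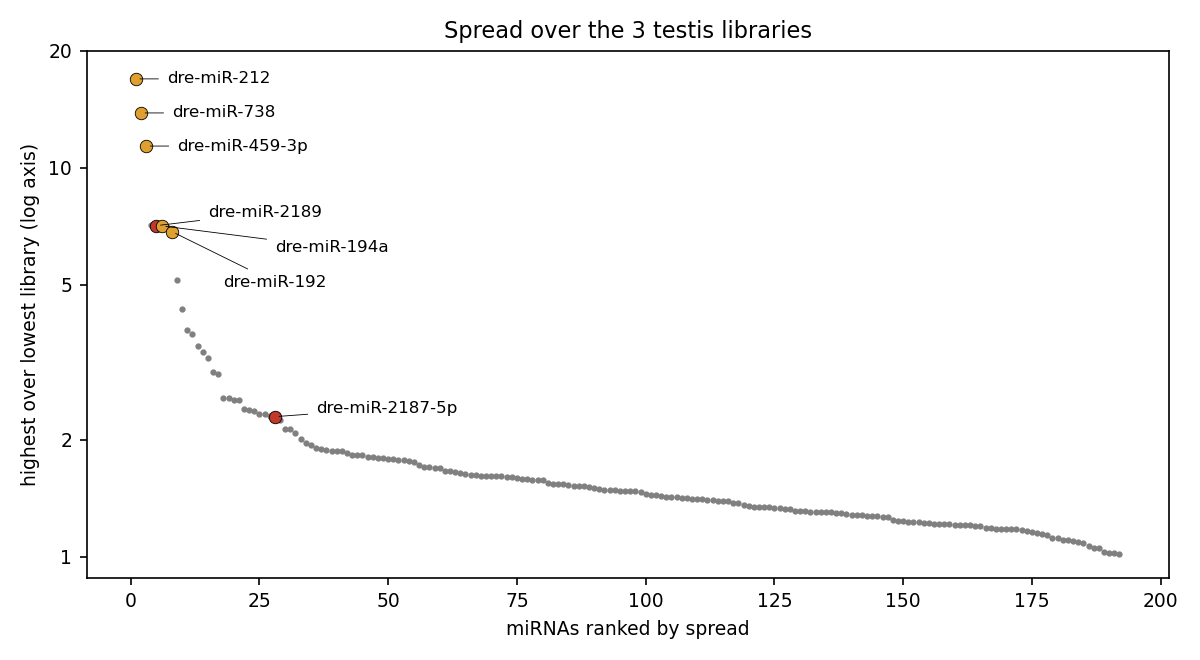
Each point is a miRNA that averaged 10 or more normalized read counts in testis, ranked on the horizontal axis, and the vertical axis is the ratio of the highest to the lowest of the 3 testis libraries on a log scale. dre-miR-2189 stands at 7.10, beside the gut markers dre-miR-194a and dre-miR-192, while dre-miR-2187-5p stands at 2.29 and the median at 1.48.

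The somatic tissues were compared in 13 pairs, 10 in males with eye and heart among them and 3 in females. In each pair edgeR glmTreat tested the read counts for a log2 fold change beyond 1, and a miRNA was called at a Benjamini-Hochberg adjusted p of at most 0.05 over 238 miRNAs. The share of all miRNAs called ran between 4.62% (heart over eye) and 66.4% (male brain over male liver), so a call in a comparison with brain is common among all miRNAs. dre-miR-2189 was called in 8 of the 13 pairs, with 9 at an unadjusted p under 0.05. It was called in 6 of the 9 pairs that do not use heart.

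dre-miR-2189 was lower in brain than in gut and liver in both sexes. The log2 fold change was -5.44 (SE 0.65, edgeR adjusted p = 1.0e-07) in female brain over female liver, a comparison that called 65.1% of miRNAs. It was -3.71 (SE 0.64, edgeR adjusted p = 5.1e-05) in female brain over female gut, with 64.7% called. In males it was -3.54 (SE 0.60, edgeR adjusted p = 5.0e-05) in brain over liver, with 66.4% called, and -2.60 (SE 0.60, edgeR adjusted p = 0.0027) in brain over gut, with 62.2% called. The last of these was lost without male gut replicate 3 when the scaling factors were computed anew, and kept when they were not. Without that library it was -1.55 (edgeR adjusted p = 0.11), and -1.95 (edgeR adjusted p = 0.031) when the scaling factors of all libraries were kept.

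Eye and heart had little dre-miR-2189 as well. Eye was below male liver by a log2 fold change of -3.97 (SE 0.64, edgeR adjusted p = 3.7e-05, with 43.3% of miRNAs called) and below male gut by -3.03 (SE 0.65, edgeR adjusted p = 0.0014, with 45.4% called). Heart was below male liver by -4.44 (SE 0.67, edgeR adjusted p = 7.8e-06, with 47.5% called) and below male gut by -3.50 (SE 0.65, edgeR adjusted p = 0.00020, with 47.9% called). In the heart comparisons the median log2 fold change of all miRNAs was 0.42 over male liver and 0.40 over male gut, so the fall of dre-miR-2189 went against the centre of the distribution.

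dre-miR-2189 was not called in the other 5 pairs. Liver over gut gave a log2 fold change of 1.73 (SE 0.51, edgeR adjusted p = 0.089, with 23.9% called) in females and 0.94 (SE 0.51, edgeR adjusted p = 0.96, with 5.46% called) in males. The female value was called without female gut replicate 2 (2.05, edgeR adjusted p = 0.0497) or without female liver replicate 1 (2.01, edgeR adjusted p = 0.040). Eye over male brain gave -0.43 (SE 0.73, with 49.2% called), heart over male brain -0.90 (SE 0.67, with 56.7% called) and heart over eye -0.47 (SE 0.73, with 4.62% called).

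No member was called between the sexes in 12 tests with edgeR, none had an unadjusted p under 0.05, and the DESeq2 test also called 0. The comparisons called 3.78% of all miRNAs in brain, 2.94% in gut and 15.1% in liver. dre-miR-2189 did not overlap between female and male brain, with 2.31 to 5.42 in females and 9.29 to 12.5 in males. Nor did dre-miR-2187-5p, with 4.33 to 9.24 and 11.8 to 14.1. The share of all miRNAs without such overlap was not computed. The log2 fold change of dre-miR-2189 was -1.16 (SE 0.71, edgeR adjusted p = 1). The 3 female brain libraries held only 3, 11 and 37 reads of dre-miR-2189. In liver the female over male log2 fold change was 0.74 (SE 0.50, edgeR adjusted p = 1), and it was -0.067 when libraries were scaled by size alone, a scaling that moved the median of all miRNAs in this comparison by -0.71. In gut the female over male log2 fold change was -0.050 (SE 0.51).

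Whether a sex effect differed between tissues was tested as the difference between 2 female over male contrasts. Among the 12 differences of the members 0 passed the edgeR quasi-likelihood F-test after adjustment, and 1 had an unadjusted p under 0.05. That one was dre-miR-2189 in liver minus brain, with a log2 difference of 1.90 (edgeR adjusted p = 0.093), in a test that called 37.4% of all miRNAs. Over the alternatives its adjusted p lay between 0.029 (compared groups alone) and 0.34. Without testis replicate 1 or 3 the edgeR adjusted p was 0.044 or 0.045. The tests of liver minus gut and of gut minus brain called 26.5% and 10.1% of all miRNAs.

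dre-miR-2187 was read from both arms of its hairpin, with both arms high in brain and the 5p arm also high in testis. The 5p arm led in testis, with 25.9, 13.3 and 11.3 normalized read counts (16.8 ± 7.95). The libraries labelled heart had 4.36 and 4.49 of it, and eye averaged 2.63. It had 9.24, 4.33 and 8.93 in female brain (7.50 ± 2.75) and 14.1, 11.8 and 13.1 in male brain (13.01 ± 1.14). The testis and male brain ranges of the 5p arm overlapped, and without testis replicate 1 the ratio of the means was 0.94 in place of 1.29. The 3p arm had 8.95, 2.79 and 3.77 in testis (5.17 ± 3.31). It had 1.51 and 2.71 in heart and averaged 1.48 in eye. In female brain it had 8.47, 10.1 and 12.7 (10.4 ± 2.15) and in male brain 14.8, 11.8 and 10.98 (12.5 ± 1.99). Testis overlapped with female brain and not with male brain for this arm, and it also overlapped with gut of both sexes, where male gut averaged 4.96. Eye and heart lay below every brain library for the 3p arm, while heart overlapped with female brain for the 5p arm.

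In embryo, ovary and liver both arms of dre-miR-2187 were scarce, and by mean normalized read count gut lay between these and brain. Embryo had 4 reads of the 3p arm and 6 of the 5p arm over its 3 libraries, and ovary had 1 and 6. For the 5p arm the ovary libraries overlapped with gut of both sexes. Its pooled CPM was 3.81 in ovary, 2.79 in male gut and 2.78 in female gut, so ovary is not placed below gut for this arm. In liver the means were 0.53 and 1.12 normalized read counts for the 3p arm and 1.32 and 1.28 for the 5p arm in females and males, and replicate 3 of either sex had 0 reads on both arms. Liver overlapped with eye on both arms, and eye over male liver was not called (log2 fold change -0.048 for the 3p arm and 0.87 for the 5p arm). Gut had means of 3.60 in females and 4.96 in males for the 3p arm, and 3.24 in females and 3.66 in males for the 5p arm.

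Each arm of dre-miR-2187 was called in 5 of the 13 somatic pairs, with 8 for the 3p arm and 6 for the 5p arm at an unadjusted p under 0.05. Each was called in 4 of the 9 pairs that do not use heart. All 10 calls had brain as the higher tissue. Among all miRNAs the pairs with male brain called 49.2% (eye), 56.7% (heart), 62.2% (gut) and 66.4% (liver). The pairs with female brain called 64.7% (gut) and 65.1% (liver). Over liver, the 3p arm was higher by a log2 fold change of 3.93 (SE 0.67, edgeR adjusted p = 8.7e-05) in female brain and 2.92 (SE 0.46, edgeR adjusted p = 8.6e-05) in male brain. The 5p arm was higher by 2.16 (SE 0.56, edgeR adjusted p = 0.013) in female brain and 3.14 (SE 0.46, edgeR adjusted p = 2.3e-05) in male brain over liver of the same sex. The female value of the 5p arm did not pass with the DESeq2 test (2.52, DESeq2 adjusted p = 0.052).

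Below brain, eye had a log2 fold change of -2.97 (SE 0.48, edgeR adjusted p = 0.00014) for the 3p arm and -2.26 (SE 0.41, edgeR adjusted p = 0.0016) for the 5p arm. Heart over male brain gave -2.50 (SE 0.36, edgeR adjusted p = 5.4e-05) for the 3p arm and -1.55 (SE 0.32, edgeR adjusted p = 0.023) for the 5p arm. The last call was lost when libraries were scaled by size alone (-1.35, edgeR adjusted p = 0.056). It was also lost with the sexes of brain averaged (-1.17, edgeR adjusted p = 0.17). Without heart replicate 1, with the scaling factors of all libraries kept, the log2 fold change was -1.53. Heart then has a single library, so only the effect size is given and not whether the call held.

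Against gut the arms crossed the threshold in different sexes. In female brain over female gut the 3p arm had a log2 fold change of 1.54 (SE 0.35, edgeR adjusted p = 0.031) and the 5p arm 1.26 (SE 0.36, edgeR adjusted p = 0.13). In male brain over male gut the 3p arm had 1.31 (SE 0.37, edgeR adjusted p = 0.11) and the 5p arm 1.85 (SE 0.38, edgeR adjusted p = 0.0073). The female over male log2 fold change was -0.16 (SE 0.31) in brain and -0.39 (SE 0.42) in gut for the 3p arm, and -0.76 (SE 0.31) in brain and -0.17 (SE 0.44) in gut for the 5p arm. None of these sex effects was called, and the test of their difference, gut minus brain, was not passed by either arm (edgeR adjusted p = 0.82 for the 3p arm and 0.53 for the 5p arm). Both values that were not called passed when libraries were scaled by size alone, with 1.46 for the 5p arm in females (edgeR adjusted p = 0.039) and 1.76 for the 3p arm in males (edgeR adjusted p = 0.0089), and also with DESeq2 size factors. The 3p call in females was lost without female brain replicate 3 (1.32, edgeR adjusted p = 0.13) or female gut replicate 2 (1.34, edgeR adjusted p = 0.10).

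**Figure D3:**
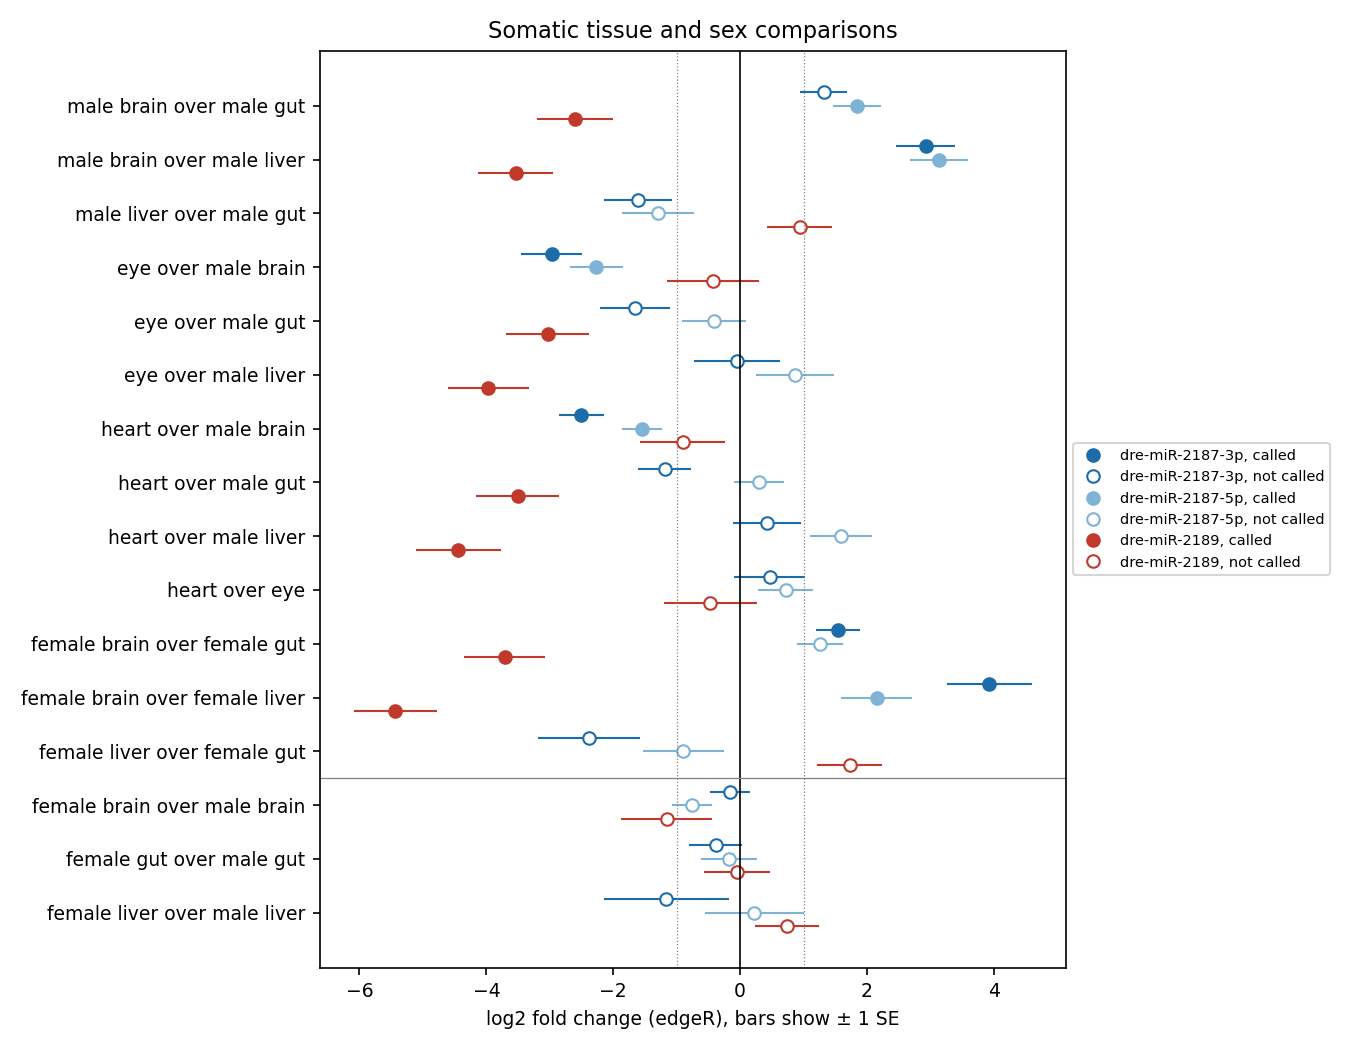
Each point is the edgeR log2 fold change of a miRNA in the comparison named on the vertical axis, with bars of 1 SE, filled where called and open where not, and dotted lines at a log2 fold change of -1 and 1. dre-miR-2189 lies below -2 in all 8 comparisons of brain, eye or heart with gut or liver, both arms of dre-miR-2187 lie on the brain side in comparisons with brain, and no female over male point is filled.

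The share of dre-miR-2187 reads from the 5p arm is a ratio within a library and does not depend on scaling. Over all libraries 454 of 830 reads were from the 5p arm. In brain the mean share was 46.1% ± 9.07 (SD, n = 6) and in gut 45.1% ± 7.41 (SD, n = 6). The difference of 0.96 percentage points was well within the spread between libraries (exact permutation test, two-sided, p = 0.84). By sex, brain minus gut was -7.08 points in females and 8.99 points in males (exact permutation test, p = 0.50 and p = 0.10, where 0.10 is the smallest p that 3 against 3 libraries allow).

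The libraries labelled heart had 74.3% and 62.4% of their dre-miR-2187 reads on the 5p arm, from 74 and 101 reads. All 6 brain libraries lay lower, between 30.0% and 54.4%. The difference of the means was 22.2 points (exact permutation test, two-sided, p = 0.071, the smallest p that 2 against 6 libraries allow), and heart minus gut was 23.2 points with the same p. The share was 41.1% ± 11.1 in female brain and 51.1% ± 2.93 in male brain, a difference of -9.94 points (exact permutation test, p = 0.30).

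In testis, as a description, 74.4%, 82.6% and 75% of the dre-miR-2187 reads were from the 5p arm. The pooled share was 76.8% (Wilson 95% interval 66.6 to 84.6%, 82 reads). All 3 testis libraries were above all brain and gut libraries, the highest of which was at 57.1%. Eye had a pooled share of 63.6% (Wilson 95% interval 43.0 to 80.3%), and ovary, embryo and liver had too few reads to place.

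**Figure D4:**
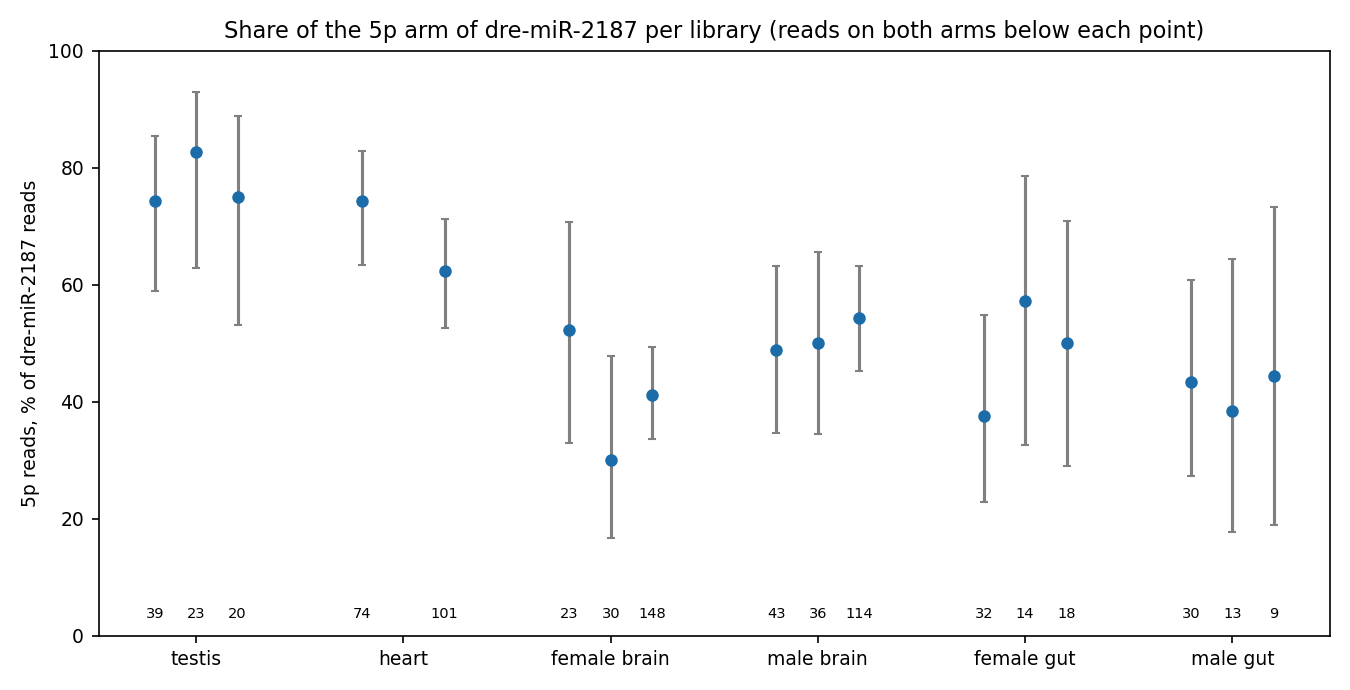
Each point is a library, the vertical axis is the 5p share of its dre-miR-2187 reads in percent, bars are Wilson 95% intervals and the digits at the foot are the reads on both arms. Testis (74.4 to 82.6%) and heart (62.4 and 74.3%) lie above brain (30.0 to 54.4%) and gut (37.5 to 57.1%).

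dre-miR-2192 was read almost entirely from the embryo sample. The 3 embryo libraries had 34, 64 and 110 reads, which is 29.1, 37.9 and 33.5 normalized read counts (33.5 ± 4.38). These libraries held 208 of all 217 reads, or 95.9%. The other 9 reads lay in 6 of 29 libraries. Ovary had 0, 1 and 3 reads, female brain 2, 0 and 1, and male liver and testis 1 read each.

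No read of dre-miR-2192 was found in the other 6 groups with 17 libraries. Against a floor of 3 counts over each of these groups, embryo was at least 94.6-fold higher than male brain, 102-fold than male gut, 135-fold than female gut, 63.5-fold than female liver, 65.1-fold than eye and 283-fold than heart. Against groups with reads, the embryo over ovary ratio of pooled CPM was 15.3 (95% counting interval 5.89 to 56.7) and the embryo over female brain ratio 131 (44.2 to 640). The embryo over testis ratio was 145 (25.7 to 5754) and the embryo over male liver ratio 213 (37.8 to 8449). The ratios to testis and male liver rest on 1 read each and have the widest intervals, and they are not to be ranked against the lower bounds, which use a floor of 3 counts.

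In the somatic and sex comparisons dre-miR-2192 was at or under the floor in both groups. It had 0 calls in 13 somatic comparisons with edgeR, 0 at an unadjusted p under 0.05 and 0 with DESeq2, and a difference was not detectable at this depth.

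The miRNAs with the most similar profiles were found by the Pearson correlation of log2(normalized read count + 1) over the 11 group means, among 232 miRNAs with a mean of at least 1. The group means share libraries and scaling and include the gonad and embryo levels that led to the selection, so the values are descriptive. For dre-miR-2189 they were dre-miR-25 (r = 0.92), dre-miR-92a (0.89) and dre-miR-202-5p (0.89), all highest in testis by group mean. dre-miR-202-5p is known as a gonad miRNA in fish, but with Spearman correlation dre-miR-19c stood in its place among the 3. For dre-miR-2192 they were dre-miR-430i (0.99), dre-miR-430c (0.91) and dre-miR-17a-3p (0.86), all highest in embryo. As dre-miR-2192 was read almost only in embryo, these r rest largely on the embryo mean, the pattern it was selected for.

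For dre-miR-2187-3p the most similar were dre-miR-125a (0.86), dre-miR-125c (0.86) and the other arm (0.85). For dre-miR-2187-5p they were dre-let-7d (0.90), dre-miR-125a (0.90) and again the other arm (0.85). The profiles of the 3 hairpins were not alike, with r = 0.011 between dre-miR-2189 and dre-miR-2192, -0.37 and -0.38 between the arms of dre-miR-2187 and dre-miR-2192, and -0.30 and -0.052 between the 3p and 5p arms and dre-miR-2189.

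The other miRNAs named in sequence with the members, dre-miR-2184 to dre-miR-2198, gave 14 mature forms, 8 of them with a read. They had 43 calls in 128 tests over the 16 somatic and sex comparisons, or 33.6%, against 37.8% for all miRNAs. One of the 8, dre-miR-2193, had 1 read in embryo, 1 in testis and none in the groups compared. Its 16 tests could not give a call, so the lower share is not read as a result, and its log2 fold changes of 0 enter the medians below. In male brain over male liver, with 66.4% of all miRNAs called, 6 were called, 4 higher and 2 lower, led by dre-miR-2191 (log2 fold change 6.14), dre-miR-2185-3p (5.47) and dre-miR-2185-5p (3.02), while dre-miR-2184 (-2.29) and dre-miR-2188-5p (-2.74) were lower in brain. The value of dre-miR-2185-3p (SE 1.55) rests on 15 reads in male brain against 0 in male liver. Female brain over female liver, with 65.1% of all miRNAs called, also called 6, with dre-miR-2191 at 6.23. The median log2 fold change of the 8 was 1.47 in males and 1.45 in females, against 0.00 and -0.13 over all miRNAs tested.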

How the data were processed

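Small RNA libraries of 11 sample groups were analysed, 32 in all, with 1 further heart sample not analysed here. The authors trimmed reads, kept those of at least 18 nt, counted them with the miRDeep2 quantifier on mature miRNAs from miRBase Release 19, and deposited the raw read counts. A second deposited table holds a normalized signal, in which each library's counts are multiplied by 1 TMM factor. Libraries were assigned by matching column names to the sample labels. Whether reads were shared between similar miRNAs was not examined. Sequences of the miRNAs were not used here.

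Levels, means and SDs are of the deposited normalized signal. The counts were fitted with edgeR 4.0.16 in R 4.3.3 (TMM, quasi-likelihood, 1 coefficient per group, all 32 libraries). Somatic and sex comparisons used glmTreat with a log2 threshold of 1, and differences of sex effects with the F-test, with p-values adjusted by Benjamini-Hochberg over 238 miRNAs with a read. SEs come from the F statistic. Correlations used a pseudocount of 1. Groups at 0 were given a floor of 3 counts over the group. Python 3.11.15 with scipy 1.17.1 gave the exact permutation tests and intervals. The steps were tested on simulated data. The study calls the replicates biological, and p-values measure the spread between them.

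The members and lists were chosen with earlier results of these data known. Named were all members, the 3 most similar miRNAs of each, up to 3 called miRNAs from dre-miR-2184 to dre-miR-2198 per comparison with the largest absolute fold change, the 3 with the widest testis spread, and tissue markers. dre-miR-2184, dre-miR-2188-5p, dre-miR-2190, dre-miR-2193, dre-miR-19c, dre-miR-194b and dre-miR-459-5p are also named, chosen after their values were seen. Alternatives were size factors of DESeq2 1.42.0, library size alone, a low count filter, other tests and thresholds, averaged sexes, a replicate block, the compared groups alone and each library left out. Leaving out a library with the scaling factors kept, and leaving out both heart libraries, were chosen after seeing the data. Depth per library, from 277699 to 11732555 counts, sets the precision.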

Additional observations from a re-analysis of the deposited data

How the results depend on the processing

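With the fold threshold applied after the test dre-miR-2187-3p had 10 somatic calls, with the sexes averaged (each averaged contrast standing for both sexes) 8, and dre-miR-2187-5p had 3 at an adjusted p of 0.01. The share of all miRNAs called was not computed for these settings, so the counts do not show a property of these miRNAs. The count of differing sex effects was 1 with the likelihood ratio test, with the compared groups alone and with DESeq2. Brain minus gut in the 5p share was -7.08 in female libraries alone. The female over male liver value of dre-miR-2189 was -0.067 with library size alone, where 9.09% of all calls were higher in females against 50% with TMM. Of the 3 similar miRNAs, 1 was kept for dre-miR-2187-3p with a pseudocount of 10, and 1 for dre-miR-2192 with Spearman correlation or a mean of at least 10. Leaving out a library gave 4 to 6 calls for dre-miR-2187-3p, 4 to 7 for dre-miR-2187-5p, 7 to 9 for dre-miR-2189, 0 for dre-miR-2192 and between the sexes, 0 to 1 differing sex effects, 40 to 46 calls for the sequentially numbered miRNAs, and -0.70 to 4.18 points in the 5p share. The differing sex effect appeared without testis replicate 1 or 3, or without female liver replicate 1 with scaling factors kept. The causes were not tested. In 20 of the 32 fits with scaling factors computed anew TMM took another reference library than with all libraries. Averaged per reference library, the scaling of male brain against male gut lay between 0.093 and 0.43 (log2). Without testis replicate 1 or 3 the reference library stayed the same, and the differing sex effect was also called with scaling factors kept. Scaling by library size alone moved the median of all miRNAs by up to -0.71 (female over male liver), and DESeq2 factors by up to -0.34 (eye over male brain). Leaving out both heart libraries kept 4, 4 and 6 calls over 9 pairs for dre-miR-2187-3p, dre-miR-2187-5p and dre-miR-2189. Correlations between libraries of the same replicate number lay between -0.42 and 0.23. Every correlation was over 0.1 in 0 of 16 comparisons, a rule that comparisons with heart could not meet, as heart has no replicate 3. Whether these libraries share fish or a batch was not tested. With the replicate block the counts of calls were 5, 5, 8 and 0 for the members. They were 0 and 0 for the sex tests and 43 for the numbered miRNAs. Depth limits dre-miR-2187 and dre-miR-2192, whose highest counts in a library were 87 and 110.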

Other observations

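Among the sequentially numbered miRNAs, dre-miR-2190 was called lower in females in brain, gut and liver, and it was chosen for mention after its values were seen. It averaged 5898 ± 315 normalized read counts in female brain and 58910 ± 27848 in male brain (SD, n = 3 each), a log2 fold change of -3.32 (SE 0.59, edgeR adjusted p = 0.0035). In gut the log2 fold change was -4.07 (SE 0.61, edgeR adjusted p = 0.00022) and in liver -2.97 (SE 0.58, edgeR adjusted p = 0.0018). The ranges of the sexes did not overlap in any of these tissues, and the share of all miRNAs without such overlap was not computed. Between the gonads the direction was reversed, with 2984 to 7000 normalized read counts of dre-miR-2190 in ovary (mean 5418), above every testis library. In testis it had 505.4, 151.3 and 70.9 normalized read counts in replicates 1, 2 and 3, where dre-miR-2189 had 239.7, 670.9 and 1703. The spread of dre-miR-2190 over testis, a ratio of 7.13, was next to that of dre-miR-2189 and in the opposite order of libraries.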
